A study of Mus musculus with 33 samples.

Results

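Hox genes encode homeodomain transcription factors that give cells their position along the body axis, and they lie in 4 clusters in the mouse genome, Hoxa on chromosome 6, Hoxb on chromosome 11, Hoxc on chromosome 15 and Hoxd on chromosome 2. The set examined was every protein-coding gene whose symbol is Hox followed by a cluster letter and a paralog number and which held at least 10 reads summed over all libraries. Of 39 such genes among the 55487 genes counted, 38 met the minimum, with 11 in Hoxa and 9 in each of Hoxb, Hoxc and Hoxd. Hoxb13, with 4 reads, was left out.

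RNAseq data came from GFP+ mammary cells of 33 mice, 19 with mammary tumors and 14 tumor-free, with 1 library per mouse. Tumor mice carried PyMT, a viral oncogene, under the MMTV promoter, which is active mainly in mammary epithelium, and tumor-free mice did not carry it. All mice carried Cre under the same MMTV promoter and the mTmG reporter, in which Cre replaces red mTd with GFP, so the controls were exposed to Cre as well. Mice labelled Pthrpflox/flox (KO) carried loxP sites in Pthlh (the PTHrP gene) and lost the stretch between them where Cre acted, and mice labelled Pthrpwt/wt (WT) kept it. The PyMT and Cre strains were FVB/NJ, and the floxed strain had been backcrossed from C57BL/6 to FVB. There were 3 WT tumors at each of 6, 8 and 10 weeks of age, 1 WT tumor at 12 weeks, and 3 KO tumors at each of 8, 10 and 12 weeks. Glands came from 2 WT mice at each of 6, 8, 10 and 12 weeks and from 2 KO mice at each of 8, 10 and 12 weeks. Tissue was digested with collagenase and dispase. By the study's methods the cells of all groups were then kept in serum-containing medium for days before GFP+ cells were sorted, so a library holds cultured cells in which Cre had acted and not a whole gland or tumor.

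Counted reads per library ranged from 28419983 to 130981596 (median 46351179). The rRNA share of the counted reads differed between the genotypes. It was 0.00717% to 0.447% in WT tumors and 0.00331% to 12.0% in KO tumors, and 0.00296% to 0.261% in WT glands against 0.0224% to 18.8% in KO glands. Pthlh itself was counted over the whole gene, including exons that Cre leaves in place, so its level is no check of the deletion. It was 1.46 to 6.67 CPM (read counts scaled to library totals adjusted by TMM) in WT tumors (n = 10), 1.35 to 2.29 in KO tumors (n = 9), 2.93 to 7.73 in WT glands (n = 8) and 2.79 to 8.52 in KO glands (n = 6). The labelled cell type, mammary epithelium, was checked with markers. The summed level of 10 luminal markers was 4761 to 10650 CPM across all libraries, whereas the summed level of 10 basal or myoepithelial markers was 1006 to 5420 CPM in tumors and 5311 to 20766 CPM in glands. In bulk samples of this kind, fewer cells of a type and less RNA per cell cannot be told apart.

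In embryos, Hox genes are switched on in the order in which they lie in a cluster, from paralog 1 to paralog 13, and retinoic acid and the Polycomb and Trithorax chromatin proteins set and hold this order. The proteins bind DNA together with partners of the Pbx and Meis families. In the adult, many Hox genes continue to be expressed in a pattern that keeps the position of a tissue, and in the mammary gland members of several clusters take part in development of the ducts and alveoli.

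Reads on Hox genes were concentrated in 3 neighboring genes of cluster b. The 38 members held 43047 reads in all, and Hoxb2, Hoxb3 and Hoxb4 together held 38693 of them (89.9%). In single libraries the other members held 3.66% to 75.0% of the Hox reads in tumors (median 16.1%). In glands they held 3.86% to 11.1% (median 7.41%). Hoxb2, Hoxb3 and Hoxb4 lie head to tail on the plus strand within 35746 bases of a Hoxb1 to Hoxb9 segment of 96800 bases. The 250 bases before the start of Hoxb4, the member of the highest level per length, at chr11:96318017-96318266 (GRCm38, plus strand, from the RefSeq promoter table) are shown with each CpG in capitals, because the data turn on this stretch of cluster b and Hoxb4 is the only one of these 3 genes with an entry in that table.
Hoxb4 upstream: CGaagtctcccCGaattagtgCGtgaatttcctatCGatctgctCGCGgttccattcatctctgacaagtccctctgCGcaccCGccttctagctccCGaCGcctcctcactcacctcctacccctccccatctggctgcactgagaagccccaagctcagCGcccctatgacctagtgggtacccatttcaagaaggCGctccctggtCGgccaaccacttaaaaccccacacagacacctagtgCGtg
This stretch holds 14 CpG and 58.0% G and C, beside a median of 6 CpG and 52.4% over 32851 promoters of the table, and 70.64% of promoters hold fewer CpG. In 250-base windows searched on both strands, CCAAT occurred in 33.8% of all promoters, CACGTG in 6.02%, TATAAA in 12.4% and TGATTNAT, a Hox and Pbx type site, in 2.82%. The 24 promoters of the 22 members with an entry held them in 14, 4, 4 and 2 cases, and none of these letters was found before Hoxb4.

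The clusters also hold microRNA genes. Mir10a starts 1102 bases before Hoxb4 on the same strand, and Mir10b lies in cluster d. Their mature sequences (RefSeq, GRCm38.p6) are shown because Mir10a was lower in tumors like the neighboring Hoxb genes, and the seed, bases 2 to 8, is in capitals.
mmu-miR-10a-5p (chr11:96317186-96317208, plus strand): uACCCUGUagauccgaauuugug
mmu-miR-10b-5p (chr2:74726074-74726096, plus strand): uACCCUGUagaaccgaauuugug
mmu-miR-196a-5p (chr11:96265187-96265208, plus strand): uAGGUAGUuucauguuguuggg
mmu-miR-196b-5p (chr6:52230129-52230150, minus strand): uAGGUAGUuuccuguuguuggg
The miR-10 pair shares the seed ACCCUGU and differs by U12A (miR-10a base, position from the 5′ end, miR-10b base). The miR-196 pair shares the seed AGGUAGU. The libraries measured total RNA and not small RNA, so reads on these genes come from their precursors or from transcripts that run through them.

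Levels between genes were compared per length, as RPKM (CPM divided by exon length in kilobases). Over the 33 libraries, Hoxb4 had a mean level of 3.44 RPKM, above 76.0% of all genes, Hoxb2 2.21 RPKM (72.5%) and Hoxb3 1.61 RPKM (70.3%). Hoxb4 is known for its role in blood stem cells, and Hoxb2 and Hoxb3 pattern the embryonic hindbrain. Hoxb5 (0.153 RPKM) and Hoxb6 (0.107 RPKM) were an order of magnitude lower. The top member was Hoxc4 in cluster c (0.0576 RPKM) and Hoxd9 in cluster d (0.0208 RPKM, above 32.3% of all genes), and Hoxd12 was lowest of all with 0.00432 RPKM. By cluster, Hoxb held 93.87% of the Hox reads, Hoxa 3.0%, Hoxc 2.24% and Hoxd 0.89%. Depth limits what the other members can show. Hoxb2, Hoxb3 and Hoxb4 were the 3 members with over 3 reads in every library, 22 members had under 100 reads summed over all 33 libraries, and a library held a read of 12 to 34 members (median 24).

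**Figure D1:**
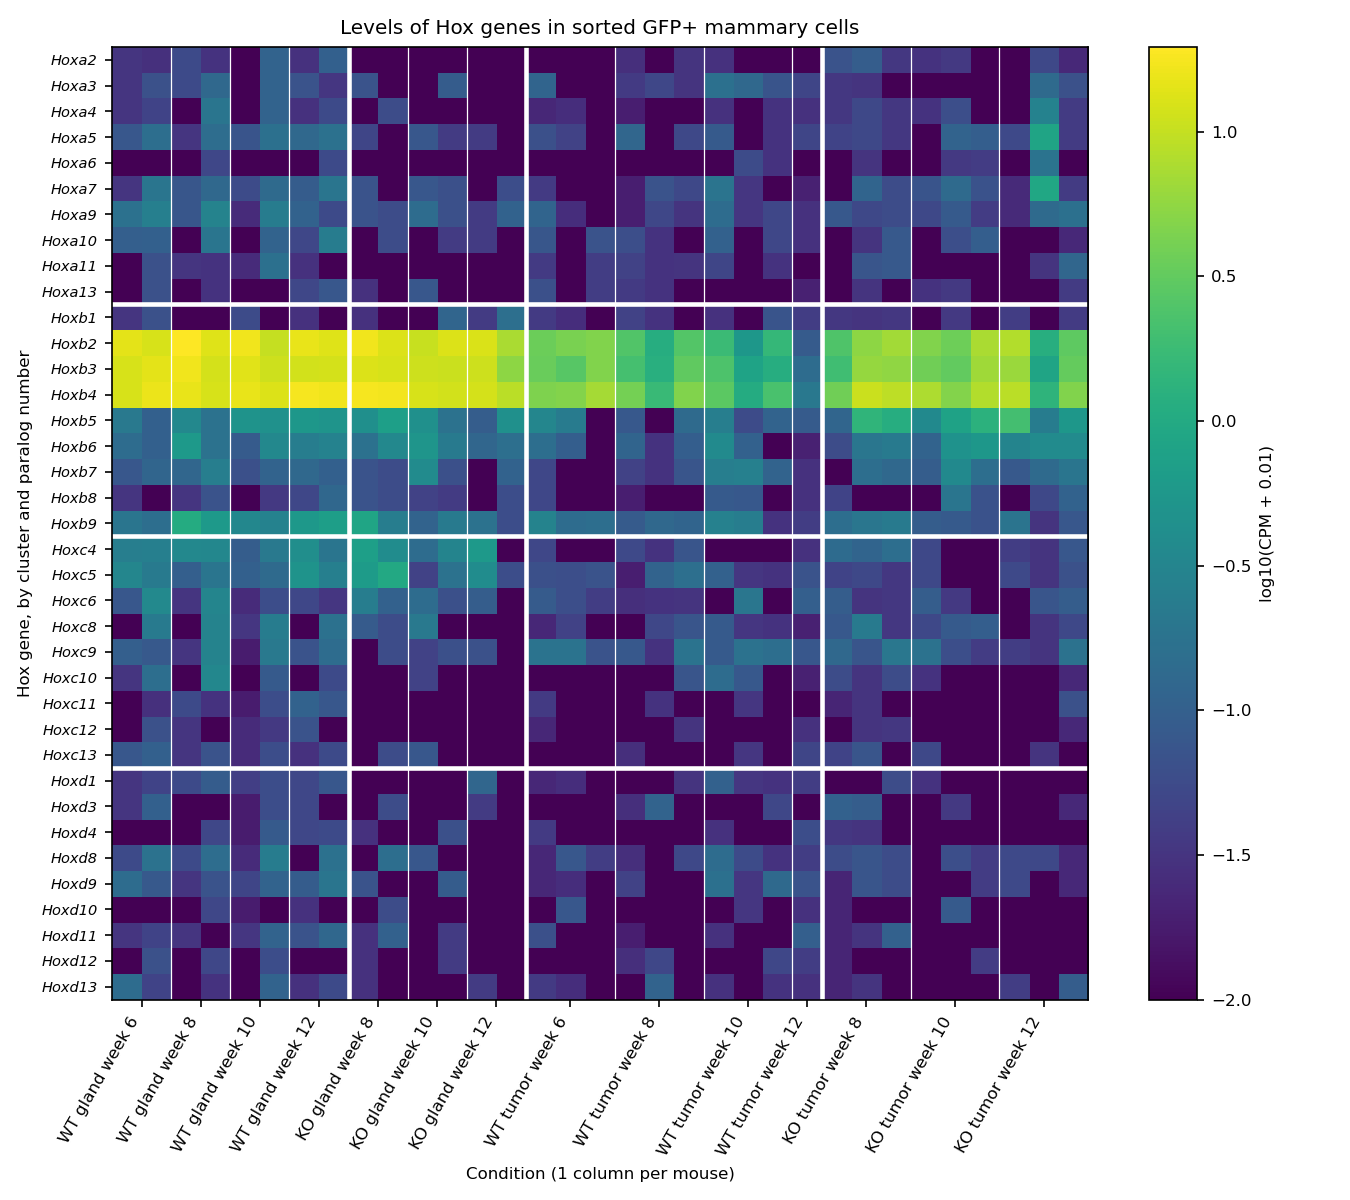
Level of Hox genes (y axis, by cluster and paralog number) in each of the 33 libraries (x axis, 1 column per mouse, grouped by genotype, tissue and week), as the log10 of CPM plus 0.01. Hoxb2, Hoxb3 and Hoxb4 form the bright band, brighter in the 14 glands on the left than in the 19 tumors on the right, and most other members lie near the level of single reads.

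Several libraries stood apart on these genes. In the KO tumor of week 12 replicate 2, Hoxa4 to Hoxa7 were at their highest, with 13, 39, 8 and 43 reads (0.275, 0.824, 0.169 and 0.908 CPM), while the next highest libraries had 0.182, 0.160, 0.0472 and 0.183 CPM. The same tumor had the lowest Hoxb2 to Hoxb4 sum of the 9 KO tumors, 3.34 CPM. The WT tumor of week 12, the only mouse of its condition, had the lowest Hoxb2 to Hoxb4 sum, 0.413 CPM, and entered no test. WT glands of week 8 replicate 2 and of week 6 replicate 2 had the highest summed levels of 10 fibroblast markers (797 and 257 CPM). Their Hoxc6 to Hoxc13 sums, 1.27 and 0.948 CPM, were above the median of 0.264 CPM over glands, and Hoxa9, Hoxc8, Hoxc9 and Hoxc10 peaked in the first of them. WT gland week 10 replicate 2 had a sum of 0.686 CPM at 70.2 CPM of fibroblast markers, and KO gland week 12 replicate 1 had 0.139 CPM at 121 CPM. The sort for GFP+ cells selects against fibroblasts, which keep mTd, and whether fibroblast RNA has a part in these values was not tested.

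Tumor and gland were compared at each age within a genotype, and over all 6 pairs of tumor and gland conditions, to ask how the Hox genes differ between PyMT tumors and tumor-free glands. Across the 6 pairs, Hoxb2, Hoxb3 and Hoxb4 were lower in tumors, together with Hoxb9, Hoxc4 and Hoxc5. A gene was called differentially expressed (DEG) where edgeR's quasi-likelihood test gave a Benjamini-Hochberg adjusted p below 0.1 and the fold change exceeded 1.5. By that rule 6 of the 38 members were lower over the 6 pairs, while 8.23% of the 36527 genes tested were lower and 6.69% were higher (14.9% in either direction). Each library is a separate mouse, so these p-values measure the spread between mice.

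Hoxb2 was 14.5 and 12.5 CPM in WT glands of week 6, 19.6 and 13.4 at week 8, 16.6 and 9.98 at week 10 and 15.2 and 13.5 at week 12. In KO glands it was 16.7 and 13.1 CPM at week 8, 10.5 and 13.2 at week 10 and 12.8 and 7.49 at week 12. The glands spanned one range at all ages, with the lowest value in a KO gland of week 12. WT tumors had 3.55, 4.28 and 4.64 CPM at week 6, then 2.48, 1.11 and 2.57 at week 8, 1.77, 0.543 and 1.53 at week 10 and 0.0787 at week 12. KO tumors had 2.45, 5.33 and 6.80 CPM at week 8, 4.63, 3.66 and 7.43 at week 10 and 8.08, 1.14 and 3.03 at week 12. All tumors but 1, a KO tumor of week 12, lay below the lowest gland. The mean in WT tumors was 30.8% of that in glands of the same age at week 6, 12.5% at week 8 and 9.62% at week 10, and in KO tumors 32.7%, 44.3% and 40.2% at weeks 8, 10 and 12. Over the 6 pairs the log2 fold change of Hoxb2 was -2.03 ± 0.22 (SE; adjusted p = 4.7e-08).

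Hoxb3 followed the same order of groups. WT glands had 12.4 and 14.2 CPM at week 6, 16.7 and 12.1 at week 8, 13.8 and 11.04 at week 10 and 11.8 and 12.0 at week 12, and KO glands 13.2 and 12.2, 10.9 and 10.7, then 10.9 and 5.37 at weeks 8, 10 and 12. WT tumors had 3.44, 2.73 and 4.64 CPM at week 6, 2.06, 1.19 and 3.08 at week 8, 2.34, 0.803 and 1.12 at week 10 and 0.138 at week 12. KO tumors had 1.90, 5.96 and 5.52 CPM at week 8, 3.75, 3.18 and 6.69 at week 10 and 6.24, 0.824 and 3.28 at week 12. The KO gland of week 12 replicate 2 was again the lowest gland, and 4 of 19 tumors reached its level, while all other glands lay above every tumor. The log2 fold change over the 6 pairs was -1.96 ± 0.22 (SE; adjusted p = 1.2e-07). Exons of the antisense gene Hoxb3os cover 52.9% of the Hoxb3 exon bases and 27.3% of those of Hoxb2. Whether counting used strand is not given in the sources used, so reads of Hoxb3os and of these 2 genes may be mixed.

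Hoxb4 shares no exon base with another gene, and it gave the same picture. Its level in WT glands was 12.4 and 15.6 CPM at week 6, 15.5 and 12.5 at week 8, 15.4 and 13.3 at week 10 and 17.7 and 16.6 at week 12. KO glands had 17.6 and 17.4 CPM at week 8, 12.4 and 11.8 at week 10 and 12.0 and 8.86 at week 12. Glands spanned 8.86 to 17.7 CPM, again with a KO gland of week 12 as the lowest. WT tumors had 4.46, 4.80 and 6.96 CPM at week 6, 4.05, 1.67 and 4.68 at week 8, 2.88, 1.04 and 2.22 at week 10 and 0.197 at week 12. KO tumors had 3.83, 10.6 and 9.28 CPM at week 8, 7.60, 4.84 and 8.09 at week 10 and 8.94, 1.37 and 4.61 at week 12. Only 3 tumors, all KO, reached the lowest gland. The log2 fold change over the 6 pairs was -1.54 ± 0.20 (SE; adjusted p = 1.2e-06). Hoxb2, Hoxb3 and Hoxb4 remained DEGs without any 1 of the 30 libraries of this comparison.

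**Figure D2:**
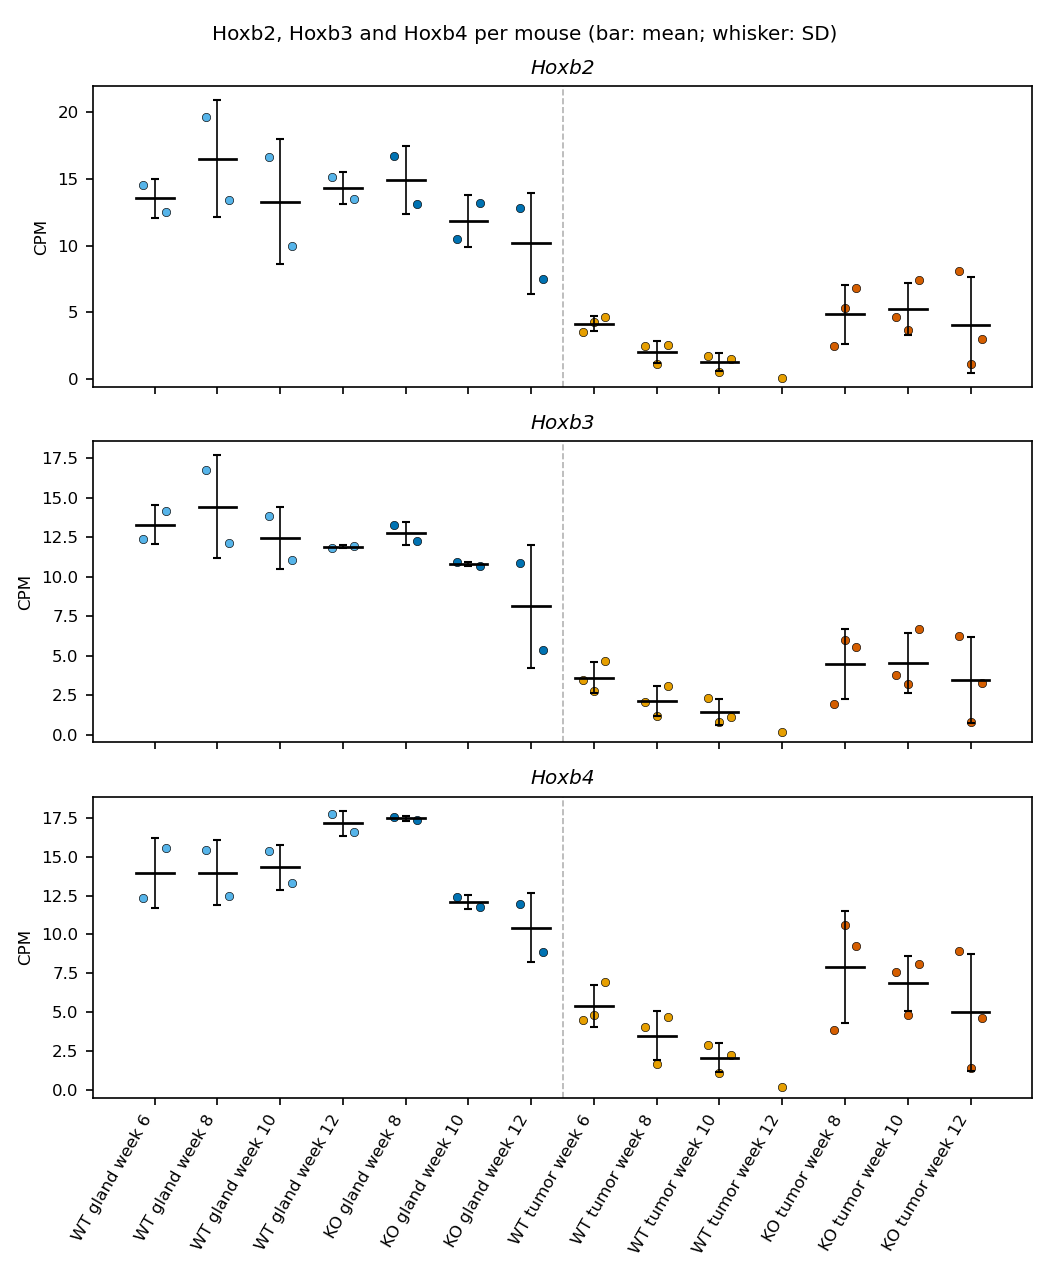
Hoxb2, Hoxb3 and Hoxb4 in each mouse in CPM (y axis) by condition (x axis). Dots are mice, bars are means and whiskers are the SD. Glands lie between 5.37 and 19.6 CPM and tumors between 0.0787 and 10.6 CPM. The single WT tumor of week 12 is lowest for each gene, and 1 KO tumor of week 12 lies among the WT tumors of weeks 8 and 10.

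In single comparisons, 3 members were lower in WT tumors at week 6, 5 at week 8 and 4 at week 10, and none was higher, while 3.53%, 5.84% and 3.67% of all genes tested were lower. Hoxb2 was lower at the 3 ages, with log2 fold changes of -1.70 ± 0.53, -3.00 ± 0.54 and -3.37 ± 0.55 (SE; adjusted p = 0.068, 0.00061 and 0.00038 in edgeR's quasi-likelihood test), and so was Hoxb3, with -1.89 ± 0.54, -2.77 ± 0.55 and -3.12 ± 0.56 (adjusted p = 0.046, 0.0015 and 0.00098). Hoxb4 was a DEG at week 8 (-2.01 ± 0.49, adjusted p = 0.0098) and week 10 (-2.80 ± 0.51, adjusted p = 0.0010) and not at week 6 (-1.38 ± 0.49, adjusted p = 0.13). The calls of week 6 rest on few mice. Without any 1 of its 5 libraries at most 1 of the 3 remained, and Hoxb2 was lost each time. Hoxb3 remained without WT tumor replicate 3 only. Hoxc4 was the other member called at each age, and Hoxb9 was called at week 8 only (-3.00 ± 0.66, adjusted p = 0.0040).

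In KO tumors 1 member was lower at each of weeks 8, 10 and 12, Hoxc5 at week 8 and Hoxc4 at weeks 10 and 12, and none was higher, beside 1.38%, 3.09% and 2.92% of all genes tested. Hoxb2, Hoxb3 and Hoxb4 did not pass the test at any of these ages. Their log2 fold changes were -1.62 ± 0.53, -1.52 ± 0.54 and -1.15 ± 0.49 at week 8 (adjusted p = 0.14, 0.20 and 0.35), -1.18 ± 0.53, -1.25 ± 0.54 and -0.82 ± 0.49 at week 10 (adjusted p = 0.27, 0.24 and 0.48) and -1.31 ± 0.53, -1.23 ± 0.54 and -1.07 ± 0.49 at week 12 (adjusted p = 0.19, 0.25 and 0.28). At weeks 8 and 10 every KO tumor was nonetheless below every KO gland of its age for the 3 genes, and at week 12 the groups overlapped. These calls depend on the fit. Hoxb2 was also called at week 8 without a filter, with DESeq2, with the replicate block and with the compared groups alone, at week 10 without a filter and with the compared groups alone, and at week 12 without a filter, with DESeq2, with limma and with the replicate block. Hoxb3 was called at the 3 ages without a filter, at week 8 with DESeq2 and at week 10 with the compared groups alone, and Hoxb4 at week 8 without a filter and at week 10 with the compared groups alone. Groups of 3 and 2 mice leave wide errors, and a p over the threshold does not show equal levels.

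**Figure D3:**
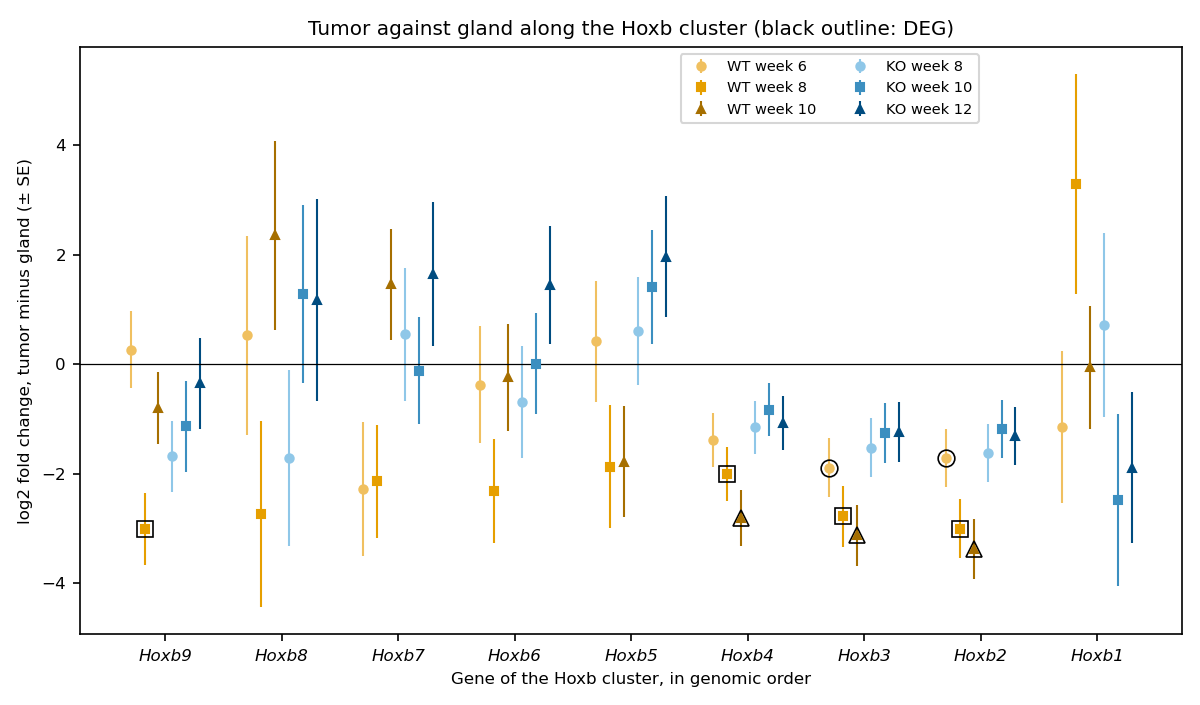
Log2 fold change of tumor against gland (y axis) for each member of cluster b (x axis, by paralog number) in the single comparisons of WT and KO mice, with DEGs outlined in black. The fold changes of Hoxb2 to Hoxb4 are below 0 in all 6 comparisons and furthest below 0 in WT tumors of weeks 8 and 10.

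The difference between WT and KO in the effect of the tumor was tested itself, with the tumors and glands of weeks 8 and 10. No member passed (0.00548% of all genes did), with 7 members at an unadjusted p under 0.05 beside 5.58% of all genes. DESeq2 and limma, which called 0.203% and 0.00587% of all genes, called no member either, whereas Hoxb2 was called without the filter on low counts. Hoxb2 had a difference of -1.78 ± 0.54 on the log2 scale (SE; adjusted p = 0.73 in edgeR's quasi-likelihood test), Hoxb3 -1.56 ± 0.55 (adjusted p = 0.83) and Hoxb4 -1.42 ± 0.50 (adjusted p = 0.82). The tumor effects of the 2 genotypes are therefore not shown to differ. WT tumors of weeks 6 to 10 and stage-matched KO tumors of weeks 8 to 12, compared in the same way after the data were seen, gave no member either (0.14% of all genes called, and 10 members beside 10.4% of all genes at an unadjusted p under 0.05), with -1.32 for Hoxb2 (adjusted p = 0.26).

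Tumors of both genotypes were next compared directly at the shared ages, weeks 8 and 10, with 6 mice each. Hoxb2, Hoxb4 and Hoxb5 were lower in WT than in KO tumors, 3 of the 38 members, and none was higher, while 0.37% of all genes tested were lower and 0.142% were higher. Hoxb2 had a mean of 1.67 CPM in WT and 5.05 CPM in KO tumors (log2 fold change -1.63 ± 0.35 (SE), adjusted p = 0.044 in edgeR's quasi-likelihood test). Hoxb4 had 2.76 and 7.37 CPM (-1.46 ± 0.32, adjusted p = 0.048). Hoxb3 did not pass (-1.37 ± 0.36, adjusted p = 0.11). Hoxb5, which patterns the shoulder and the lung in the embryo, was 0.0993 and 0.839 CPM (-3.10 ± 0.69, adjusted p = 0.049).

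Hoxb5 differed from Hoxb2 to Hoxb4 in that its highest levels were in tumors. KO tumors had 0.107, 1.41 and 1.11 CPM at week 8, 0.350, 0.768 and 1.29 at week 10 and 2.03, 0.232 and 0.541 at week 12, whereas WT tumors ranged from 0 to 0.317 CPM (median 0.0902, n = 10). Glands had 0.0911 to 0.538 CPM in WT and 0.0831 to 0.722 CPM in KO mice, and they overlapped the tumors of both genotypes. Of 9 KO tumors, 5 had more Hoxb5 than every gland, and no WT tumor did. Over the 6 pairs its log2 fold change was 0.13 ± 0.46 (SE; adjusted p = 1.0), with the genotypes averaged.

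The rRNA share differed among KO tumors as well. The 3 KO tumors with an rRNA share under 0.1% had 0.107 to 0.541 CPM of Hoxb5 (median 0.350), and the 6 others, with 0.743% to 12.0% rRNA, had 0.232 to 2.03 CPM (median 1.20). Hoxb2 had a median of 3.03 CPM in the former (2.45 to 4.63) and 6.07 CPM in the latter (1.14 to 8.08), and Hoxb4 4.61 CPM (3.83 to 7.60) and 8.52 CPM (1.37 to 10.6). The ranges overlapped for all 3 genes. In KO glands the medians of Hoxb2 and Hoxb4 lay the other way, with 14.7 and 14.8 CPM in the 2 glands under 0.1% rRNA and 11.8 and 12.1 CPM in the 4 others, while Hoxb5 was 0.0831 to 0.432 CPM in the former and 0.163 to 0.722 CPM in the latter. With the rRNA share as a covariate, an alternative chosen after the data were seen, Hoxb2 remained a DEG (-1.57, adjusted p = 0.093), and Hoxb4 (-1.39, adjusted p = 0.11) and Hoxb5 (-2.37, adjusted p = 0.18) did not, beside 0.318% of all genes called. None of the 3 calls remained without WT tumor week 8 replicate 2, KO tumor week 8 replicate 2 or replicate 3, or KO tumor week 10 replicate 3, and over all single omissions the log2 fold change of Hoxb2 stayed between -1.79 and -1.45. Hoxb5 was also lost without WT tumor week 8 replicate 1, WT tumor week 10 replicate 3 or KO tumor week 10 replicate 2, with values from -3.51 to -2.82. When tumors were matched by stage, WT tumors of weeks 6, 8 and 10 against KO tumors of weeks 8, 10 and 12, also chosen after the data were seen, the 3 genes were again called, Hoxb5 with -2.82 ± 0.55 (adjusted p = 0.011), Hoxb2 with -1.08 (adjusted p = 0.060) and Hoxb4 with -0.94 (adjusted p = 0.082), beside 1.11% of all genes.

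In glands of weeks 8, 10 and 12 (6 mice of each genotype), no member passed the test between WT and KO, beside 0.906% of all genes tested. There were 8 members at an unadjusted p under 0.05, beside 12.4% of all genes. DESeq2 called Hoxb9 and 2.03% of all genes, and limma on the deposited normalized values called Hoxc11 and Hoxa2 and 1.94% of all genes, each higher in WT. Hoxb2 had a log2 fold change of 0.27 ± 0.33 (SE) there. Between ages, no member passed in WT tumors of week 10 against week 6, where 0.011% of all genes were called and 6 members beside 8.55% of all genes had an unadjusted p under 0.05. Hoxb2 had -1.69 ± 0.51 (SE, log2) in that comparison with an adjusted p of 0.46. DESeq2 called this 1 member and 0.693% of all genes, and limma no member and 0.0205% of all genes. In KO tumors of week 12 against week 8 edgeR called 0 members and 0% of all genes (4 members and 7.88% of all genes at an unadjusted p under 0.05). It called 0 members and 0.35% of all genes in WT glands of week 12 against week 6 (1 member and 8.2% at an unadjusted p under 0.05), and 0 members and 0.567% in KO glands of week 12 against week 8 (2 members and 9.27% at an unadjusted p under 0.05). DESeq2, with 0.342%, 1.87% and 2.94% of all genes, and limma, with 0%, 0.707% and 1.9%, called no member in these 3 comparisons. KO glands gained 1 call without KO gland week 12 replicate 1.

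Hoxc4 and Hoxc5, which are neighbors at the end of cluster c that is transcribed first in the embryo, had reads mainly in glands. Hoxc4 was 0.0847 to 0.418 CPM in WT glands (8 to 21 reads) and 0 to 0.707 CPM in KO glands, the 0 being KO gland week 12 replicate 2. In tumors it was 0 to 0.0638 CPM in WT and 0 to 0.145 CPM in KO mice, with 0 reads in 7 of the 19. The log2 fold change over the 6 pairs was fitted as -3.51 ± 0.44 (SE; adjusted p = 1.2e-06 in edgeR's quasi-likelihood test). It averages a pair whose tumors all had 0 reads, so its size is not exact, and it was -2.42 in limma and -4.01 to -2.31 with 1 library left out. At these counts the single comparisons are bounds. Against a floor of 3 reads per library, Hoxc4 was at least 4.23-fold lower in WT tumors of week 6, at least 2.28-fold lower at week 10, where all 3 tumors had 0 reads, and at least 2.90-fold lower in KO tumors of week 10. The calls of Hoxc4 at a single age mostly hung on each library. At week 6 the call remained only without WT tumor replicate 1, at week 8 only without WT tumor replicate 3, in KO mice of week 10 only without KO tumor replicate 1 and of week 12 only without KO gland replicate 2, and in WT mice of week 10 it was lost without WT gland replicate 2 and in a fit of the compared groups alone. In KO mice of week 12 the call was also lost with the replicate number as a block (-2.89, adjusted p = 0.12), in limma on the normalized values (-0.98, adjusted p = 0.67) and in that fit of the compared groups (-2.89, adjusted p = 0.38).

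Hoxc5 had 0.0886 to 0.478 CPM in WT glands and 0.0341 to 0.962 CPM in KO glands, beside 0.00872 to 0.149 CPM in WT tumors and 0 to 0.0555 CPM in KO tumors. Its log2 fold change over the 6 pairs was -2.26 ± 0.38 (SE; adjusted p = 4.1e-05 in edgeR's quasi-likelihood test), and in KO tumors of week 8 it was at least 13.9-fold lower than in glands (adjusted p = 0.0087). Glands and tumors overlapped for both genes. Hoxc5 shares 166 exon bases with Hoxc10, and such reads could be counted for either.

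Hoxb9, the 5′-most member of cluster b in the set and known to act with its paralogs in the growth of the mammary gland, was 0.146 to 1.04 CPM in WT glands, 0.0492 to 0.864 CPM in KO glands and 0.0204 to 0.290 CPM in tumors. The groups overlapped in 16 of 19 tumors. The log2 fold change over the 6 pairs was -1.11 ± 0.30 (SE; adjusted p = 0.0065 in edgeR's quasi-likelihood test). Without KO gland week 12 replicate 1 the call was lost (-0.89, adjusted p = 0.16), as was that of Hoxc4 (-2.31, adjusted p = 1.0), while Hoxb2, Hoxb3, Hoxb4 and Hoxc5 were still called. For Hoxc4 the other gland of that condition is the one with 0 reads, and the fit then has no value for it.

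**Figure D4:**
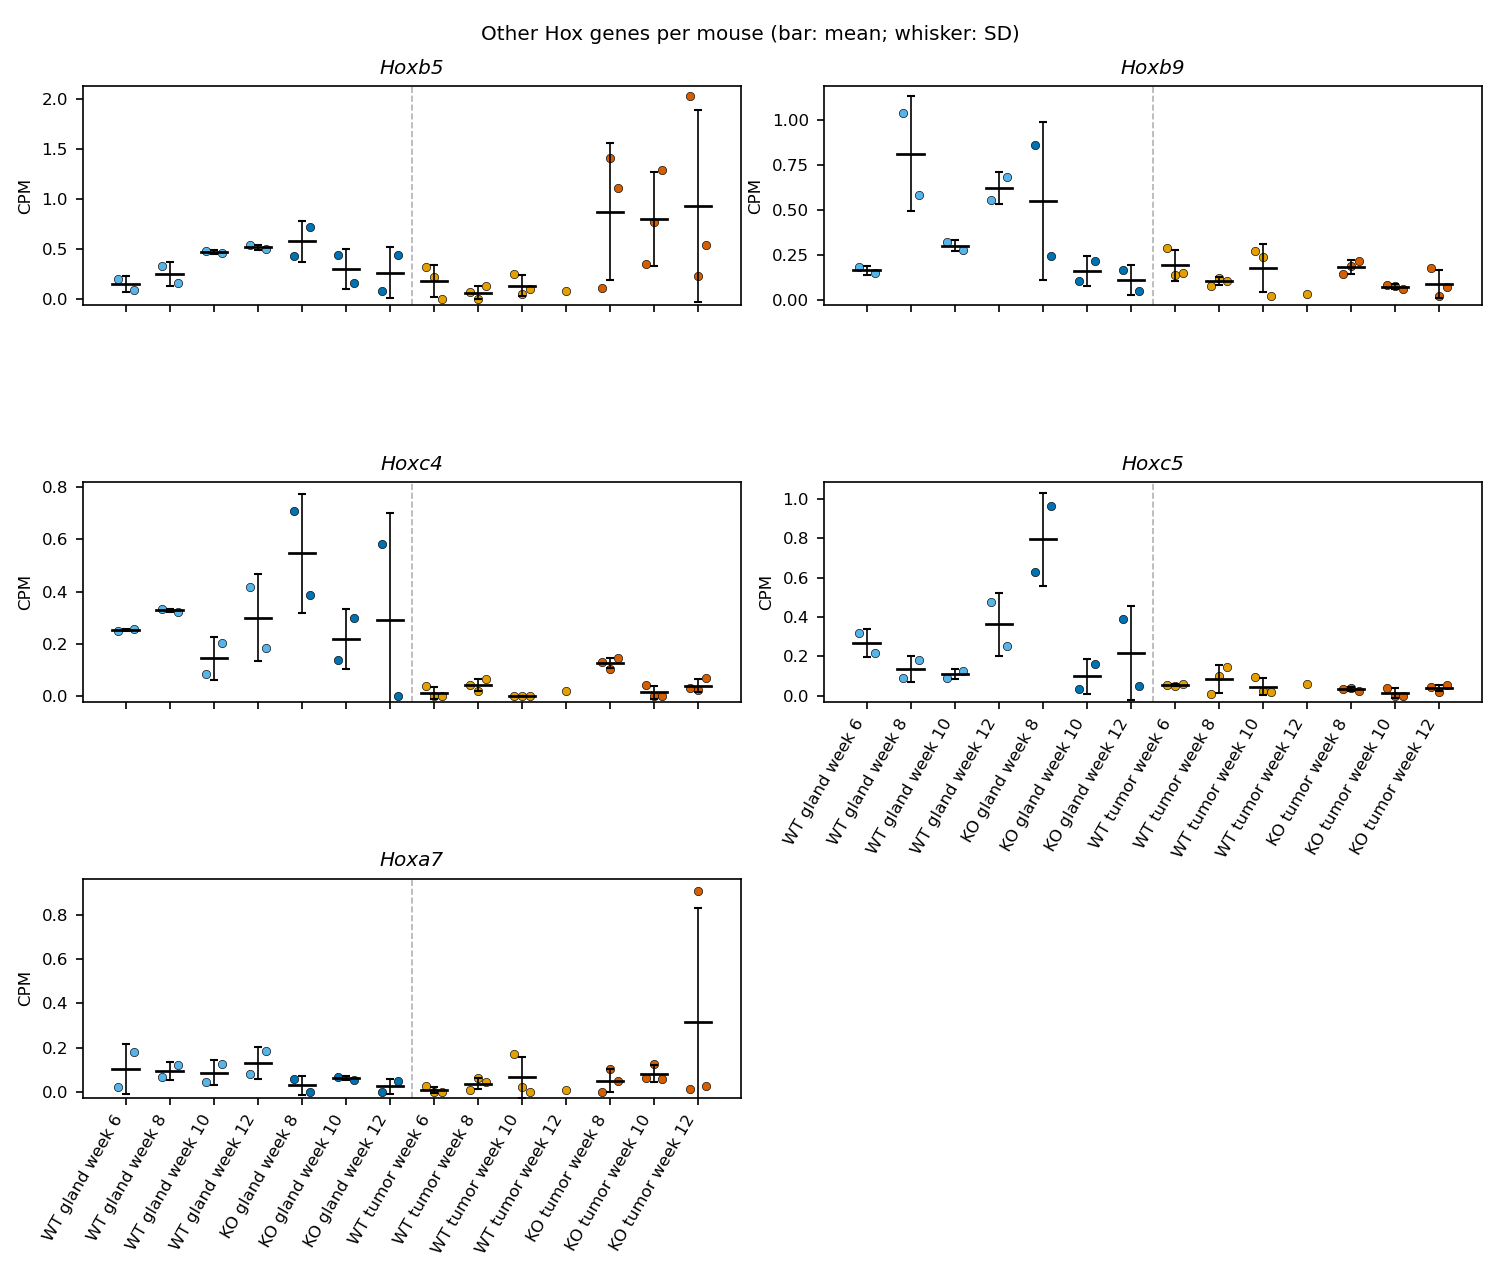
CPM (y axis) of Hoxb5, Hoxb9, Hoxc4, Hoxc5 and Hoxa7 in each mouse, by condition (x axis). Dots are mice, bars are means and whiskers are the SD. Hoxc4 and Hoxc5 lie near 0 in most tumors, Hoxb5 is highest in KO tumors, and 1 KO tumor of week 12 holds the highest Hoxa7 level, 0.908 CPM.

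No call over the 6 pairs was made for 31 members, and many of them had few reads. For 16 of them, all with 73 reads or fewer in total, a condition had 0 reads in all its libraries and the fit gave a standard error over 100 on the log2 scale, so their p says nothing. By cluster, Hoxb had 4 members lower, Hoxc 2, and Hoxa and Hoxd none. The median log2 fold change over the 38 members, these 16 included, was -0.25, and 0.079 over all genes. With the 6 members at the floor in 1 tissue set to their bound, and the 3 at the floor in both left out, it was -0.14. Within cluster b, Hoxb6 (-0.36 ± 0.41) and Hoxb7 (-0.14 ± 0.44) did not pass. Limma on the deposited normalized values called 8 members lower, adding Hoxa9 and Hoxc13. It called 16.3% of all genes in either direction. The share of genes lower alone is not given here, so these values are not like for like.

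Hoxd9, the top member of cluster d, had 0 to 8 reads per library, with 0.0222 to 0.183 CPM in WT glands, 0 to 0.0814 CPM in KO glands, 0 to 0.154 CPM in WT tumors and 0 to 0.0630 CPM in KO tumors. Both KO groups held 3 reads or fewer in every library, so no fold is given between them. Summed over the cluster, Hoxd was 0.131 to 0.762 CPM in WT glands (median 0.404) and 0.0294 to 0.442 CPM in WT tumors (median 0.167), and 0 to 0.337 CPM in KO glands (median 0.152) and 0.0206 to 0.273 CPM in KO tumors (median 0.125). In several parts of cluster d the counting itself is uncertain, since Gm28230 covers 53.1% of the Hoxd3 and 39.1% of the Hoxd4 exon bases.

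Likeness was measured for the top members. Over the 33 libraries, the Pearson correlation of log2 CPM was 0.986 between Hoxb4 and Hoxb2 and 0.720 between Hoxc4 and Hoxc5. Hoxd9 was most like Hoxd4 (0.561). After the mean of each condition was taken out, Hoxb2 and Hoxb4 had a correlation of 0.935, Hoxc4 and Hoxc5 0.588 and Hoxd9 and Hoxd4 0.513, and by that measure Hoxc4 was most like Hoxd1 (0.666) and Hoxd9 most like Hoxb2 (0.580), both in another cluster. These values describe libraries that share depth, rRNA share and cell makeup, and Hoxb2 and Hoxb3, with 0.985, also share the antisense gene.

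The basal or myoepithelial markers moved with the fall of Hoxb2 to Hoxb4. Of 10 such markers, 10 were lower in tumors over the 6 pairs, with a median log2 fold change of -2.96. Of all genes tested, 8.23% were lower and 6.69% were higher. Among the other lists of 10, luminal markers were 2 higher and 3 lower, fibroblast and endothelial markers 4 lower each, macrophage and lymphocyte markers 2 lower each and adipocyte markers 1 lower, with none higher in these 5 lists. The summed level of Hoxb2 to Hoxb4 was 0.413 to 23.3 CPM in tumors (median 10.9) and 21.7 to 51.8 CPM in glands (median 40.7). At like basal sums the Hoxb level differed. KO tumor week 8 replicate 1, with a basal sum of 5420 CPM, had 8.18 CPM of Hoxb2 to Hoxb4, whereas WT gland week 10 replicate 2, with 5311 CPM, had 34.3 CPM and KO gland week 12 replicate 2, with 5561 CPM, had 21.7 CPM. KO tumor week 12 replicate 1 had 23.3 CPM at a basal sum of 1951 CPM. The part of the basal cells in the lower Hoxb levels of tumors was not tested.

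**Figure D5:**
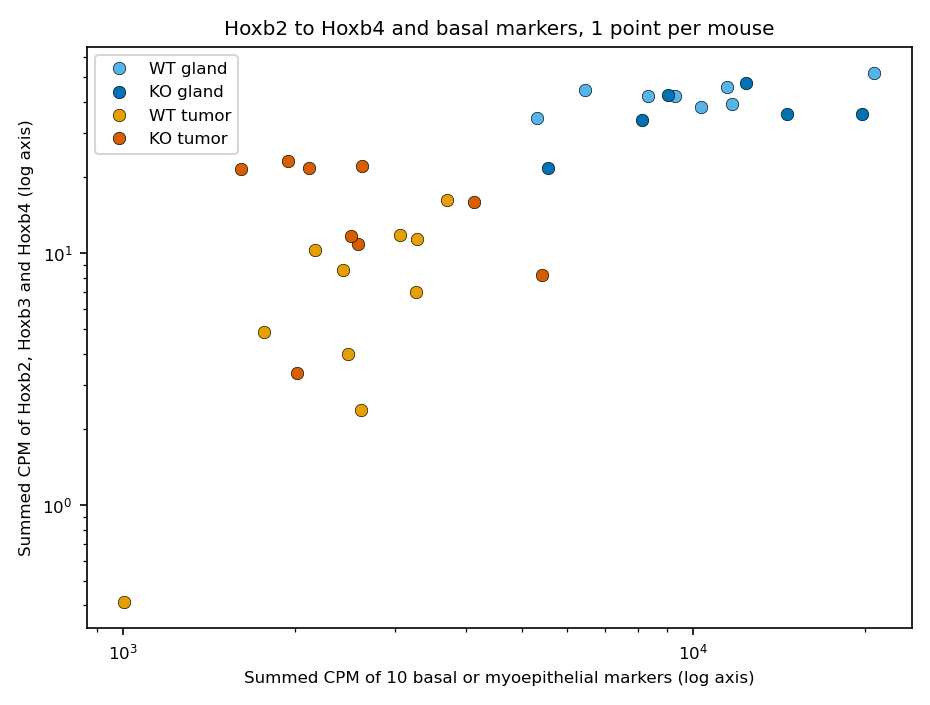
Summed CPM of Hoxb2, Hoxb3 and Hoxb4 (y axis, log scale) against the summed CPM of 10 basal or myoepithelial markers (x axis, log scale), with 1 point per mouse colored by genotype and tissue. Glands fill the upper right, tumors spread from 0.413 to 23.3 CPM at basal sums of 1006 to 5420 CPM.

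Among noncoding genes of the clusters, 12 of 20 listed were tested, of which 3 were lower and 1 was higher over the 6 pairs. For this list and those that follow, 8.23% of all genes were lower and 6.69% higher. Hoxb3os, transcribed across Hoxb3 and Hoxb2 from the opposite strand, was 2.86 to 6.63 CPM in glands and 0.0393 to 2.34 CPM in tumors, with no overlap (log2 fold change -2.27 ± 0.22 (SE), adjusted p = 1.1e-08 in edgeR's quasi-likelihood test). Hotairm1 was higher in tumors (1.24 against 0.660 CPM, 0.89 ± 0.23, adjusted p = 0.0039). Mir10a was lower (0.0507 against 0.121 CPM, -1.44 ± 0.47, adjusted p = 0.026), with 0 to 15 reads per library, and Hoxb5os was lower at 0 to 8 reads per library (-1.59 ± 0.65, adjusted p = 0.086).

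Genes that act with or on Hox genes were counted in lists. Of 9 Hox cofactors, the Pbx, Meis and Pknox genes, 1 was lower over the 6 pairs, Pknox2 (1.39 against 4.22 CPM, log2 fold change -1.56 ± 0.22 (SE), adjusted p = 4.7e-06 in edgeR's quasi-likelihood test), and none was higher. Of 24 chromatin regulators, none was called (11 at an unadjusted p under 0.05, beside 30.5% of all genes). Between WT and KO tumors Dot1l, which methylates histone H3, was lower in WT (45.4 against 75.6 CPM, -0.74 ± 0.18, adjusted p = 0.080). In that comparison 0.37% of all genes were lower and 0.142% were higher, and counts over the lists are not given here. Of 15 genes flanking the clusters, 1 was lower, Skap1, beside Hoxb1 (-0.94 ± 0.30, adjusted p = 0.025).

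Of 18 retinoic acid genes, 4 were higher and 3 lower in tumors over the 6 pairs. Crabp2, which carries retinoic acid to its receptors, was higher (70.5 against 27.5 CPM, log2 fold change 1.35 ± 0.082 (SE), adjusted p = 5.3e-12 in edgeR's quasi-likelihood test), as were the degrading enzymes Cyp26b1 (1.37 ± 0.24, adjusted p = 6.4e-05) and Cyp26a1 (3.02 ± 0.52, adjusted p = 6.6e-05). Stra6, which takes up retinol, and Aldh1a3, which makes retinoic acid, were lower, with -2.13 ± 0.29 (adjusted p = 1.8e-06) and -1.56 ± 0.22 (adjusted p = 3.8e-06). The median over the list was -0.032, and 0.079 over all genes.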

How the data were processed

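The authors removed rRNA, built stranded paired-end libraries, mapped reads with HISAT to Gencode M16 and GRCm38, dropped duplicates with Picard 1.128 and ran HTSeq. The deposited raw counts cover 55487 genes, and 111 other sequences (0.0778% of the reads) were left out. A second deposited table gives signal, the counts after division by each library's size factor, and served 1 alternative. Whether HTSeq used strand is not given in the sources used here.

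Counts were fitted in edgeR 4.0.16 (quasi-likelihood, TMM, 1 coefficient per condition over the 33 libraries). The 36527 genes with 10 or more reads in all were tested, and p-values were adjusted over all of them. Each SE was taken from the log2 fold change and its F statistic. A group with 3 reads or fewer in every library counted as at the floor. Exon lengths and overlaps came from GENCODE M21 (GRCm38). The steps were tested on simulated data. Alternatives included DESeq2 1.42.0, limma 3.58.1 with a pseudocount of 1, and each library left out, in R 4.3.3 and Python 3.11.15.

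The members, gene lists and comparisons were chosen with earlier results of these data known. Values per group were given for members that were DEGs over the 6 pairs, in 2 or more single comparisons or in another comparison, and for the top member of each cluster. 1 member is included in the counts and medians and is not reported here otherwise. Of other lists up to 5 DEGs of lowest p over the 6 pairs were named, and Dot1l was named outside this rule. Hoxa4 to Hoxa7, Hoxa9, Hoxc6 to Hoxc13, Hoxb6, Hoxb7 and Hoxa2 were named after their values were seen.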

Additional observations from a re-analysis of the deposited data

How the results depend on the processing

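Over the alternatives and the omission of single libraries, 472 log2 fold changes of called Hox genes kept their direction and call, 51 kept the direction and lost the call, and 1 reversed. Hoxc4 in KO tumors of week 12 ranged from -3.69 to 4.25 (adjusted p = 0.69 for the latter), the latter without KO gland week 12 replicate 1, which leaves as gland the library with 0 reads. Members called changed as follows. The fits also differed in the share of all genes called. For the difference of the tumor effect it was 0.00548% in edgeR and 0.203% in DESeq2. These counts alone therefore do not show a change particular to Hox genes. In WT tumors of week 6 (3) filterByExpr, DESeq2 and a fit of the compared groups alone gave 5 each. For KO tumors of week 8 (1), no filter gave 4, the replicate block 2, DESeq2 3 and the compared groups alone 3. For week 10 (1), no filter gave 3 and the compared groups alone 4, and for week 12 (1), no filter gave 3, filterByExpr 2, DESeq2 3 and the compared groups alone 0. The difference of the tumor effect (0) gave 1 without a filter, WT against KO tumors (3) gave 1 with the rRNA share as a covariate, WT against KO glands (0) gave 1 with DESeq2 and 2 with limma, and WT tumors of week 10 against week 6 (0) gave 2 without a filter and 1 with DESeq2. With single libraries left out, the count ranged from 0 to 1 for WT tumors of week 6, from 4 to 5 at week 8 and from 3 to 4 at week 10, from 1 to 1, 0 to 1 and 0 to 3 for KO tumors of weeks 8, 10 and 12, from 4 to 8 over the 6 pairs, from 0 to 4 for WT against KO tumors, from 0 to 1 for WT against KO glands (1 without WT gland week 10 replicate 1) and from 0 to 1 for KO glands between ages (1 without KO gland week 12 replicate 1).

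Replicate numbers did not pair the mice (correlations of their deviations from -0.476 to 0.290). With the replicate block, WT tumors had 4, 5 and 4 members lower at weeks 6, 8 and 10, KO tumors 2 (Hoxc5 and Hoxb2), 1 (Hoxc4) and 1 (Hoxb2, with Hoxc4 lost) at weeks 8, 10 and 12, the 6 pairs 7, and WT against KO tumors 4. Depth limits all members but Hoxb2, Hoxb3 and Hoxb4, since the others held 3 reads or fewer in at least 1 library.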
